A study of Mus musculus with 8 samples.

Results

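The genes described here are 46 chemokines, chemokine receptors, inflammatory cytokines and secreted inflammatory proteins, measured in 8 whole mammary tumors of mice. They were chosen by name, and each was found in the table among the 23521 array rows that carry 1 gene symbol and stand for 22180 genes. Of the 46, 45 had 1 row and Csf2 had 2, of which the row with the higher mean over the 8 arrays was used. The study asked how targeting Mmp14, a matrix-degrading protease held in the cell membrane, in the carcinoma cells affects gene expression in the tumor. All 8 tumors came from mice with the MMTV-PyMT transgene, which drives the polyoma middle T oncogene in mammary epithelium, and floxed Mmp14 alleles, Mmp14(f/f), on a congenic FVB/NJ background, and tumors were taken at 3 to 4 months of age. The 4 tumors called cKO (conditional knockout) came from mice with an added MMTV-Cre transgene, and the 4 called WT, the submitters' wild-type, from littermates without it, so no group had the Cre transgene with intact Mmp14 alleles. The MMTV promoter acts mainly in mammary epithelium, while the samples were intact tumors from inguinal and thoracic glands, with stroma, vessels and immune cells in them. In such bulk samples, fewer cells of a type and less RNA per cell cannot be told apart.

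Chemokines are small secreted proteins that direct the movement of leukocytes through receptors on the cell surface. The CC and CXC families are named after the spacing of their first cysteines, and Cx3cl1 is the one member of a further family. CC ligands such as Ccl2 act largely on monocytes and macrophages, the ligands of Cxcr2 such as Cxcl1 on neutrophils, and the interferon-induced ligands of Cxcr3, Cxcl9 and Cxcl10, on activated T cells. The cytokines Il1b and Tnf switch on many of these genes through the transcription factor NF-kappa-B. In mammary tumors macrophages, neutrophils, fibroblasts and the carcinoma cells themselves are known sources of these factors.

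The promoter letters of 4 chemokine genes are shown because Cxcl1 had the smallest p of the 46 genes, Cxcl2 and Cxcl3 are its close relatives on chromosome 5, and Cxcl10 stands for the interferon-induced ligands. These genes were picked with their values known. The sequences are from RefSeq (build GRCm38.p6) and run from 5′ to 3′ over the 250 bases before each gene's start. Their positions are chr5:90890995-90891244 for Cxcl1, chr5:90903649-90903898 for Cxcl2 and chr5:90785851-90786100 for Cxcl3, all on the plus strand, and chr5:92348890-92349139 on the minus strand for Cxcl10. Capitals mark matches of the kappa-B consensus, searched on both strands, and in Cxcl10 also the first match, of the interferon-type element, which is GAAA, any 2 bases and GAAA again.
Cxcl1: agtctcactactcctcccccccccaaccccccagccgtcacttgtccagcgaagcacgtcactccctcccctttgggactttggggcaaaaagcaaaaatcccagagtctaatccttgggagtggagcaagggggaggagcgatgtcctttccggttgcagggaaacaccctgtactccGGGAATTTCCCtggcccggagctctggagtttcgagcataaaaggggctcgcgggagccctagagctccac
Cxcl2: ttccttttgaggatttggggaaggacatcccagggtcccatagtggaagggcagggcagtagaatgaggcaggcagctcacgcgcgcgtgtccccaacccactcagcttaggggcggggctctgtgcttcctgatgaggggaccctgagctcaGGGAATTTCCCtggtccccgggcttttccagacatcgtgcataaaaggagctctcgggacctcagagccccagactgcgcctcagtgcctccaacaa
Cxcl3: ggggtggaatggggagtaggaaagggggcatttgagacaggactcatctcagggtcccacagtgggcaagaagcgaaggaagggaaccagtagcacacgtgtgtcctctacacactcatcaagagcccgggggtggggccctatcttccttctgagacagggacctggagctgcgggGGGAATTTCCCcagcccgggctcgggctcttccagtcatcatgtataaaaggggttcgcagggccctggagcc
Cxcl10: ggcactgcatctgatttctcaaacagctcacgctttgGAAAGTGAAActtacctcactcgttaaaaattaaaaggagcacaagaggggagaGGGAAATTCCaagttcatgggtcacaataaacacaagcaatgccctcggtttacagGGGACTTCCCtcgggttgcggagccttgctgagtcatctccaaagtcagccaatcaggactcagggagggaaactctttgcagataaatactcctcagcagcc
In Cxcl1, Cxcl2 and Cxcl3 the same pair of overlapping kappa-B matches, 1 per strand, began 71, 97 and 73 bases before the start. In Cxcl10 kappa-B matches began 159 and 103 bases before the start, and the interferon-type match 213 bases before it.

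Of the 46 genes, 37 had a promoter in the RefSeq table, reaching from 250 bases before to 50 after the start, with 41 promoters among them because some genes had several. A kappa-B match lay in 7 of the 41 promoters, or 17.1%, against 4.51% of all 32851 promoters. The 7 were those of Cxcl1, Cxcl2, Cxcl3, Cxcl10, Ccl9, Ccl20 and Il6, of which the first 3 are related by sequence and are not independent. The letters TATAAA of the TATA box, searched on the sense strand, lay in 41.5% of the 41 and in 8.32% of all. They were counted at any place in the promoter, as in Cxcl9, 195 bases before the start. The share is thus of promoters with these letters and not of those with a TATA box. The interferon-type element, on either strand, lay in 7.32% against 3.44%, namely in Cxcl10, Cxcl14 and Saa3. The element TTCNNNGAA lay in 4.88% against 8.3%, and the core GAGGAA of the myeloid factor PU.1 in 39% against 28.3%. A match is a description of the letters and not a measured site of binding.

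Each tumor gave 1 array of RMA values, log2 signals between 0.853 and 12.9, with array medians between 3.64 and 3.71. Signals of different rows are not set against each other as amounts of RNA, since probes differ. A difference is always the mean of the 4 cKO tumors minus that of the 4 WT tumors on the log2 scale, with its standard error (SE) from limma. The targeted transcript itself (Mmp14) stood at 8.86, 9.12, 9.31 and 9.17 in WT 1 to 4 and at 7.98, 7.74, 7.44 and 7.72 in cKO 1 to 4. The groups did not overlap, and the cKO mean was 38.0% of that in WT, with 30.8% and 46.9% as the bounds of the 95% interval (limma adjusted p = 0.0444). Leaving out any WT tumor, cKO 2 or cKO 4 left it above the threshold of 0.05, at differences of −1.48 to −1.33. So did the array number as a block (limma adjusted p = 0.0708) and the replicate number as a block (limma adjusted p = 0.353). Markers of luminal epithelium, the lineage of these tumors, were bright in all 8, with mean levels between 9.19 and 9.99.

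None of the 46 genes passed the threshold of an adjusted p of 0.05 in limma or in any of 16 alternative fits, against 0.0085% of all tested rows, or 2 rows, 1 of which was Mmp14. At an unadjusted p under 0.05 in limma there were 6 of the 46, or 13%, beside 9.68% of all rows. These were Cxcr4, Il1a and Ccl4, higher in cKO, and Cxcl1, Ccl17 and Cx3cl1, lower in cKO. Their adjusted p-values lay between 0.379 and 0.515. In no member were the groups free of overlap, while 5.42% of all rows had groups that did not overlap. In all, 21 members were higher and 25 lower in cKO, or 45.7% higher, against 56.5% of all rows, and the median difference was −0.024 beside 0.023 over all rows. The precision varied from an SE of 0.08 for Il6 to one of 0.91 for Ccl28. For 18 members the 95% interval lay within 0.5 on either side of 0. Among these 18, Ccl2, Ccl20, Ccl22, Cxcl2, Cxcl15, Cxcr3, Il6, Csf2 and S100a9 had a mean below the array median. Such dim rows may not be above background, and their narrow intervals do not show that a change was absent. For 12 members the interval reached 1 or more in some direction, so a change of that size lay within the interval.

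**Figure D1:**
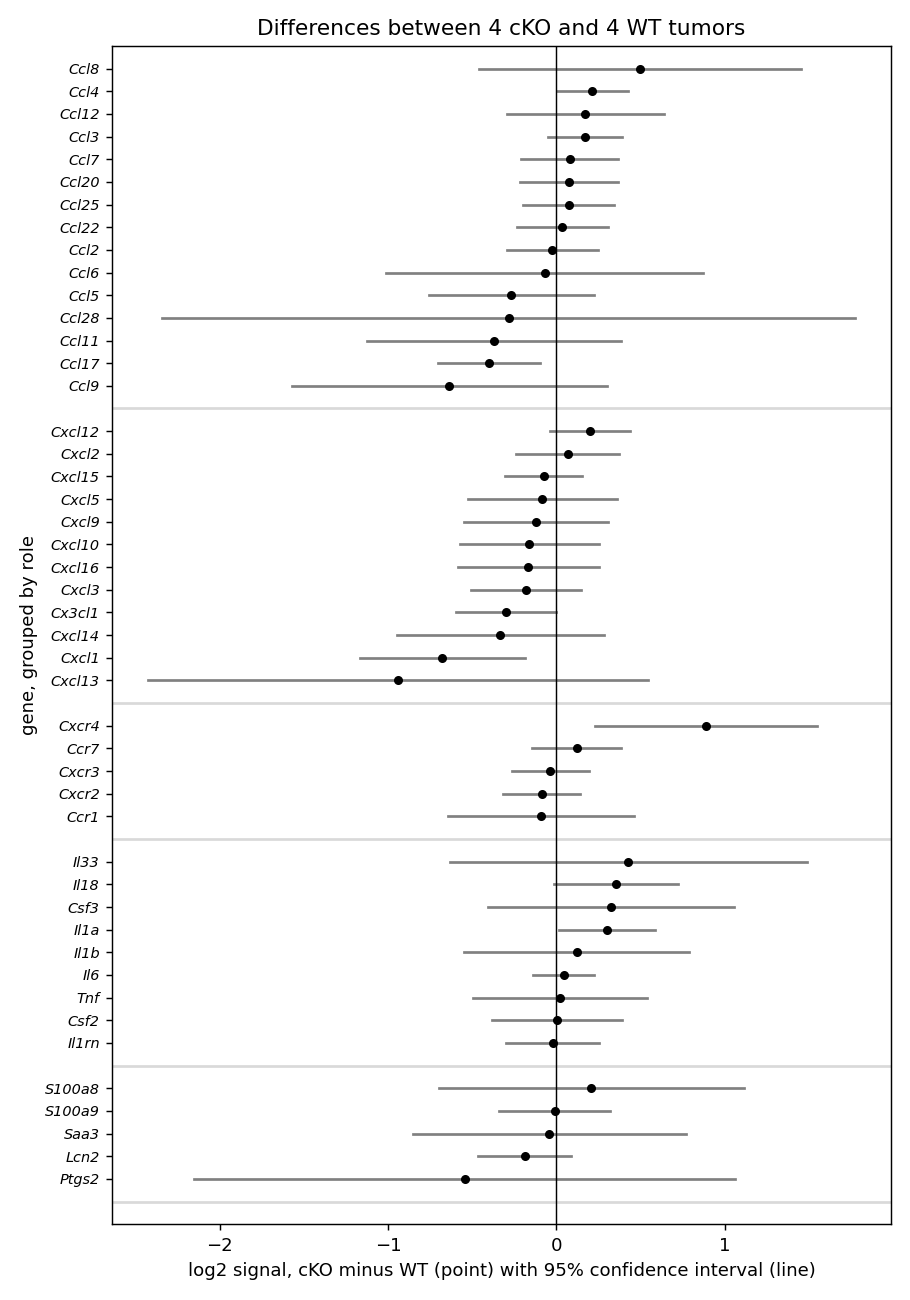
The difference in log2 signal between cKO and WT is plotted for the 46 genes by role, each as a point with its 95% confidence interval as a line (4 tumors per group, limma). Cxcr4, at 0.89, and Cxcl13, at −0.94, lie farthest from 0, and the interval of Ccl28, from −2.34 to 1.77, is the widest.

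The 15 CC chemokines were 8 higher and 7 lower in cKO, with a median difference of 0.035. Ccl17, a ligand of Ccr4 made by dendritic cells and macrophages, had the smallest p among them. Its signal was 4.63, 4.77, 4.68 and 4.81 in WT 1 to 4 and 4.64, 4.43, 4.01 and 4.20 in cKO 1 to 4. Only cKO 1 reached into the WT range, and it lay just above the lowest WT tumor. The difference was −0.40 (SE 0.13, limma adjusted p = 0.403), being −0.17 on the arrays numbered 1 to 4 and −0.64 on those numbered 5 to 8, with 2 tumors a group in each. Its neighbour in function, Ccl22, the other ligand of Ccr4, differed by 0.035 at a signal below the array median. Ccr4 itself, also with a mean below the array median, differed by 0.26 (SE 0.11).

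Ccl4 and Ccl3, neighbouring genes whose proteins attract macrophages and T cells, were both somewhat higher in cKO. Ccl4 stood at 4.12, 4.13, 4.00 and 4.09 in WT and at 4.28, 4.46, 4.36 and 4.09 in cKO, a difference of 0.21 (SE 0.09, limma adjusted p = 0.515). Its cKO 4 tumor lay inside the WT range and the other 3 cKO tumors above it. Ccl3 stood at 4.38, 4.42, 4.33 and 4.25 in WT and at 4.57, 4.60, 4.27 and 4.61 in cKO, a difference of 0.17 (SE 0.10, limma adjusted p = 0.614). Here cKO 3 lay among the WT tumors and apart from the other 3 cKO tumors, and without it the difference was 0.25. Neither gene passed, and both had a range over the 8 tumors of less than 0.5 on the log2 scale.

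Ccl9 and Ccl6, which lie next to each other among the CC genes of chromosome 11 and are made mainly by myeloid cells, shared 1 tumor with a low signal. For Ccl9 the signals were 7.75, 7.79, 7.85 and 8.61 in WT and 7.73, 7.97, 5.99 and 7.76 in cKO. WT 4 was above, and cKO 3 far below, the other 6 tumors, which lay between 7.73 and 7.97. For Ccl6 they were 4.47, 4.73, 4.80 and 4.65 in WT and 4.81, 4.79, 3.20 and 5.58 in cKO, with cKO 3 again lowest and cKO 4 highest. The differences were −0.64 (SE 0.41) for Ccl9 and −0.071 (SE 0.42) for Ccl6, with limma adjusted p-values of 0.662 and 0.973. Without cKO 3 that of Ccl9 was −0.18 and that of Ccl6 0.39, so the sign for Ccl6 turned without that tumor. Ccr1, a receptor of both ligands, was also lowest in cKO 3, at 4.10 against 4.81 to 5.35 in the other 7 tumors.

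In cKO 3 the fibroblast markers were low as well, with a mean level of 5.48 over 10 genes against 6.48 to 7.86 in the other tumors, none of the 10 below the array median. The mean level of 12 macrophage markers in cKO 3 was 6.07, within the range of 5.75 to 6.47 of the others. Among these, Mrc1 was lowest in cKO 3, at 4.87, while Adgre1 (6.22) and Ms4a7 (7.08) there were higher than in all 4 WT tumors. The same tumor was lowest for the levels of endothelial (5.55), luminal (9.19), basal (5.05) and adipocyte (3.73) markers. It was highest for those of T cells (4.03) and of B and plasma cells (3.94). A mean below the array median was found for 4 of 6 adipocyte, 4 of 8 T-cell and 5 of 7 B and plasma cell markers. Such dim rows may not be above background. The part of these cell types in the Ccl9, Ccl6 and Ccr1 signals was not tested.

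The ligands of Ccr2 bring monocytes from the blood. Ccl2 was below the array median in all 8 tumors (3.05 to 3.56), with a difference of −0.025. Ccl7 differed by 0.079 and Ccl12 by 0.17. Ccl8, which is not counted here as a ligand of Ccr2, differed by 0.49. Ccl8 ran from 4.17 to 4.88 in WT and stood at 5.22, 4.53, 4.02 and 6.26 in cKO, on both sides of the WT range, and its difference was 0.077 without cKO 4 and 0.82 without cKO 3. Ccl11, or eotaxin, which attracts eosinophils, stood at 6.40, 6.37, 5.87 and 6.15 in WT and at 6.46, 5.62, 4.83 and 6.40 in cKO. Its difference was −0.37 (SE 0.33) and −0.041 without cKO 3. Ccl5, made by T and natural killer cells, was highest in WT 3 (6.38) and next in cKO 3 (5.91), and differed by −0.27 (SE 0.22), or −0.073 without WT 3.

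Ccl28, a mucosal chemokine secreted by epithelia including the mammary gland, where it draws antibody-secreting cells, had the largest range of the 46 genes, 3.99 on the log2 scale. It stood at 6.95, 5.46, 9.15 and 7.70 in WT and at 6.45, 5.16, 8.97 and 7.54 in cKO. Tumors numbered 3 were highest and tumors numbered 2 lowest in both groups, and each cKO tumor lay 0.16 to 0.50 below the WT tumor of the same number. The labels do not say that a number marks a shared litter or day. Deviations of same-numbered tumors from their group means were correlated over the 10186 rows with a mean of 5 or more. The correlations for numbers 1 to 4 were −0.0212, −0.2, 0.294 and −0.245. The difference of Ccl28 was −0.28 (SE 0.91, limma adjusted p = 0.947), and its sign turned without WT 3 (0.33) or cKO 2 (0.34). With the replicate number as a block its unadjusted p in limma was 0.0277 and its adjusted p 0.564. The numbers were not taken to pair the tumors. The mean level of 7 B and plasma cell markers was highest in cKO 3 (3.94) and WT 3 (3.91), but lowest in cKO 4 (3.54) and WT 1 (3.59). Of these 7 markers, 5 had a mean below the array median. The other epithelial CC ligands Ccl20 (0.075) and Ccl25 (0.073) differed little, with 95% intervals from −0.22 to 0.36 and from −0.20 to 0.34. Of these, Ccl20 had a mean below the array median.

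**Figure D2:**
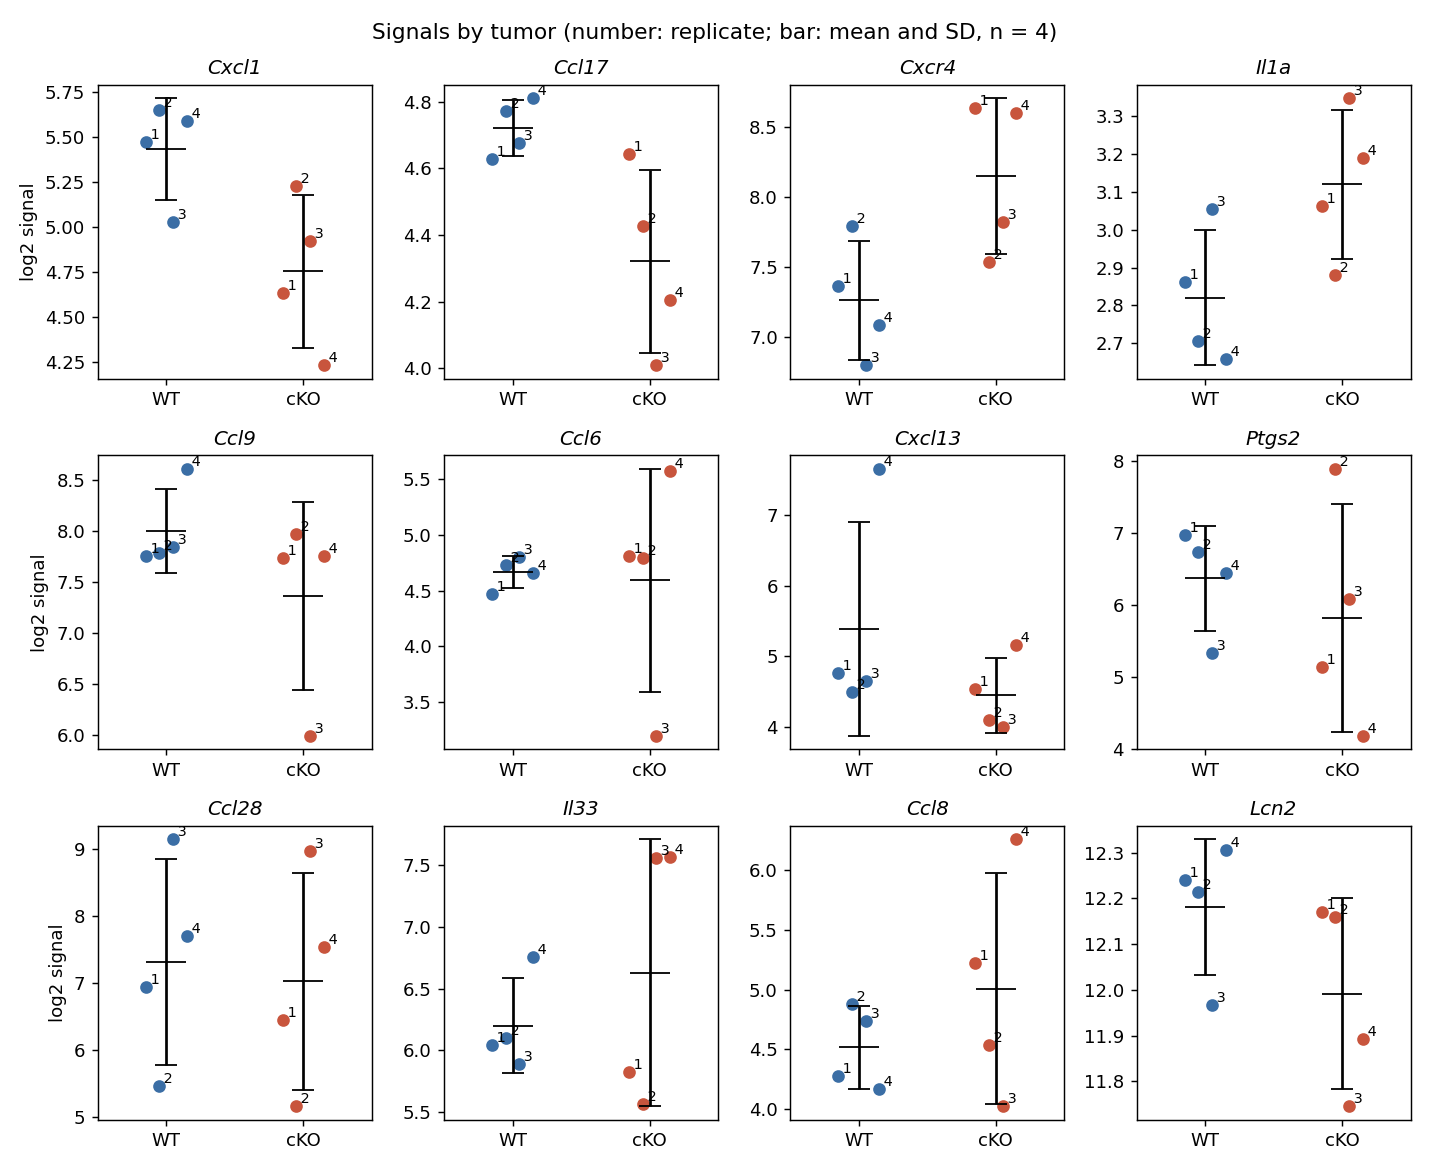
Log2 signals of 12 genes are plotted by tumor, with WT at the left and cKO at the right of each panel, the replicate number beside each point, and the mean and SD as a bar (n = 4 per group). The lowest point is cKO 3 in Ccl9 and Ccl6, the highest is WT 4 in Cxcl13 and cKO 4 in Ccl8, and the groups overlap in all 12 panels.

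Of the 12 CXC and CX3C chemokines, 10 were lower and 2 higher in cKO, with a median difference of −0.16. Cxcl1, a neutrophil attractant that acts through Cxcr2, stood at 5.47, 5.65, 5.03 and 5.59 in WT and at 4.64, 5.23, 4.92 and 4.23 in cKO. WT 3 was low enough, and cKO 2 high enough, for the groups to overlap. The difference was −0.68 (SE 0.22, 95% interval −1.17 to −0.19), or 62.5% of the WT signal, with a limma adjusted p of 0.379. The lower-numbered arrays gave −0.63 and the higher-numbered −0.73, and with any 1 tumor left out it lay between −0.84 and −0.50. The values of the other ligands of Cxcr2 were nearer to 0. Cxcl2 differed by 0.066 and Cxcl5 by −0.083, with 95% intervals from −0.24 to 0.37 and from −0.53 to 0.36. The mean of Cxcl2 was 3.47, below the array median, and that of Cxcl5 was 3.80, just above it. Rows as dim as these may not be above background. Cxcl3, whose promoter holds the same kappa-B matches as those of Cxcl1 and Cxcl2, was dim, between 1.47 and 2.21, and differed by −0.18. Whether these differences differ from that of Cxcl1 was not tested.

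The interferon-induced ligands of Cxcr3 varied between tumors more than between groups. Cxcl9 stood at 5.49, 4.89, 5.58 and 5.0 in WT and at 4.84, 5.20, 5.45 and 4.98 in cKO. Cxcl10 stood at 4.36, 3.64, 4.19 and 3.99 in WT and at 3.53, 4.07, 4.15 and 3.79 in cKO. The order of the 8 tumors was the same for both genes except that WT 1 and WT 3 changed places, and both were lowest in cKO 1. Cxcl11, the third ligand of Cxcr3 and not one of the 46, was also high in WT 3 (4.76), WT 1 (4.23) and cKO 3 (3.90) and lowest in cKO 1 (3.10). The differences were −0.12 (SE 0.19) for Cxcl9 and −0.16 (SE 0.18) for Cxcl10, with limma adjusted p-values of 0.868 and 0.821. With 1 tumor left out Cxcl9 ran from −0.24 (without WT 2) to −0.0089 (without WT 3) and Cxcl10 from −0.30 (without WT 2) to −0.043 (without cKO 1).

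The 18 measured genes of the interferon response list were all lower in cKO, with a median difference of −0.89. At an unadjusted p under 0.05 in limma there were 7, none passed the threshold, and in 1 the groups did not overlap. Of all rows, 4.14% were lower at that p, 5.42% had groups that did not overlap, and 56.5% were higher by any amount. With the arrays shifted to 1 median, 17 of the 18 genes were lower and 1 higher. Their mean level was 7.38, 6.07, 6.79 and 7.29 in WT 1 to 4 and 5.77, 6.67, 6.41 and 5.66 in cKO 1 to 4. Iigp1, an interferon-induced GTPase, stood at −1.49 (SE 0.49), the antiviral Mx1 at −0.91 (SE 0.32) and Ifit2 at −0.63 (SE 0.24), with limma adjusted p-values from 0.394 to 0.458. WT 4 had the next to highest level of this list but lay below 4 other tumors for Cxcl9 and Cxcl10. Ifng, the cytokine that induces Cxcl9, was below the array median in all 8 tumors, between 2.52 and 3.33.

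**Figure D3:**
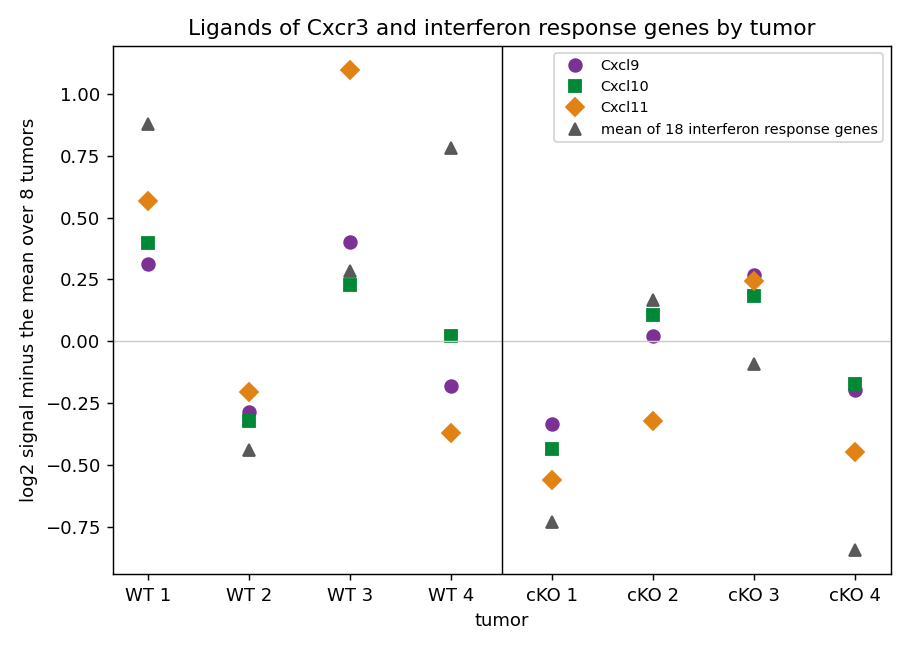
Log2 signals of Cxcl9, Cxcl10, Cxcl11 and the mean of 18 interferon response genes are plotted by tumor, each minus its own mean over the 8 tumors. The 3 ligands are above 0 in WT 1, WT 3 and cKO 3 and below 0 in WT 2, cKO 1 and cKO 4.

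Cxcl13, which attracts B cells and marks lymphoid aggregates, was set apart by WT 4. It stood at 4.76, 4.49, 4.64 and 7.66 in WT and at 4.53, 4.09, 4.00 and 5.16 in cKO. WT 4 was 2.90 above the next WT tumor, and the remaining 7 tumors lay between 4.00 and 5.16. The difference was −0.94 (SE 0.66, limma adjusted p = 0.68), and −0.18 without WT 4. The mean level of 7 B and plasma cell markers in WT 4 was 3.75, within the range of 3.54 to 3.94 of the other tumors. Of the 7, 5 had a mean below the array median, Ms4a1 and Cd79a among them, and such dim rows may not be above background. In WT 4 the B-cell transcript Ms4a1 was at 2.35 and Cd79a at 3.41, where the other tumors ran from 2.20 to 2.65 and from 2.83 to 3.70. The mean level of 5 lymph node genes there was 2.96, within the range of 2.87 to 3.10 of the others, and 4 of those 5 were below the array median.

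Cx3cl1, or fractalkine, a ligand held in the membrane of epithelial and endothelial cells, stood at 7.97, 7.72, 7.40 and 7.77 in WT and at 7.52, 7.50, 7.19 and 7.45 in cKO. The difference was −0.30 (SE 0.13, limma adjusted p = 0.511), with the WT 3 tumor among the cKO tumors. Its receptor Cx3cr1, found on macrophages and monocytes and not one of the 46, had the opposite sign, with 6.06, 6.60, 5.96 and 5.56 in WT and 6.60, 6.43, 6.70 and 6.70 in cKO, a difference of 0.56 (SE 0.19, limma adjusted p = 0.423). Cxcl12, the stromal ligand of Cxcr4, was the CXC gene with the largest positive value. It stood at 5.20, 5.46, 5.44 and 5.34 in WT and at 5.33, 5.53, 5.72 and 5.64 in cKO, a difference of 0.20 (SE 0.11, limma adjusted p = 0.592).

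Cxcl16, a ligand of Cxcr6 that is both a membrane protein and a shed chemokine, was well above the array median in all tumors. It stood at 8.34, 8.08, 8.0 and 8.56 in WT and at 8.0, 8.57, 7.96 and 7.78 in cKO, a difference of −0.17 (SE 0.19). Cxcl14, an epithelial chemokine, ran from 6.04 to 7.14 in WT and from 5.96 to 6.95 in cKO and differed by −0.33 (SE 0.27). Cxcl15, known from lung, was below the array median throughout, between 2.89 and 3.32, and differed by −0.077.

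Among the 5 receptors, Cxcr4 had the largest positive difference of all 46 genes. Cxcr4 is the receptor of Cxcl12 and is present on many leukocytes, endothelial cells and carcinoma cells. It stood at 7.36, 7.80, 6.80 and 7.09 in WT and at 8.64, 7.53, 7.82 and 8.60 in cKO. The cKO 1 and cKO 4 tumors were above all WT tumors by a wide margin, cKO 3 was only just above WT 2, and cKO 2 was below it. The difference was 0.89 (SE 0.29, 95% interval 0.23 to 1.55), with a limma adjusted p of 0.394. The lower-numbered arrays gave 0.51 and the higher-numbered 1.27, and it lay between 0.72 and 1.09 with any 1 tumor left out. The decoy receptor of Cxcl12, Ackr3, differed by −0.20 (SE 0.22).

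Of 12 macrophage markers, 9 were higher and 3 lower in cKO, with a median of 0.38 and a mean of 0.24. At an unadjusted p under 0.05 in limma there were 6, and none passed the threshold. Of all rows, 9.68% were at that p and 56.5% were higher. The mean level of the 12 ran from 5.75 to 6.21 in WT and from 6.07 to 6.47 in cKO, so the groups overlapped. Among the 9 higher markers, Ms4a7 was higher by 1.01 (SE 0.22), Adgre1 by 0.68 (SE 0.15) and C1qa by 0.39 (SE 0.12). The differences of the 3 lower markers are not given here. Endothelial markers, another source of Cxcr4, were lower in 8 of 8, with a median of −0.26. The part of either cell type in the Cxcr4 signal was not tested. The other receptors had smaller values. Ccr7, which guides dendritic and T cells to lymph nodes, differed by 0.12 (SE 0.12), Cxcr2 by −0.089 (SE 0.10), Cxcr3 by −0.036 (SE 0.10) and Ccr1 by −0.094 (SE 0.24). Ccr1 turned to 0.16 without cKO 3, and Cxcr3 lay below the array median on average.

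Of the 8 cytokines and the receptor antagonist Il1rn, 8 of the 9 genes had a positive difference, with a median of 0.12, and none passed. Il1a, an alarmin of the interleukin-1 family that is held in epithelial and other cells, stood at 2.86, 2.71, 3.05 and 2.66 in WT and at 3.06, 2.88, 3.35 and 3.19 in cKO. It was below the array median in every tumor, with WT 3 and WT 1 among or just below the lower cKO tumors, and the difference was 0.30 (SE 0.13, limma adjusted p = 0.497). Il1b, the form secreted by myeloid cells, ran from 4.25 to 5.54 in WT and from 4.47 to 5.42 in cKO and differed by 0.12 (SE 0.30). Il1rn, which blocks the interleukin-1 receptor, stood at 4.37, 4.32, 4.32 and 3.87 in WT and at 4.24, 4.22, 4.05 and 4.28 in cKO. Here WT 4 was apart from the other WT tumors, at the lowest value of the 8, and the difference was −0.024 (SE 0.12). The receptor Il1r1 differed by −0.76 (SE 0.39, limma adjusted p = 0.58), with cKO 3 at 4.10 and the other tumors between 5.71 and 6.35.

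Il18, a cytokine activated by caspase-1 that stimulates interferon-gamma production, stood at 4.88, 4.52, 4.34 and 4.53 in WT and at 4.83, 5.24, 4.56 and 5.05 in cKO. All 4 cKO tumors were above 3 of the WT tumors, and WT 1 lay among them. The difference was 0.35 (SE 0.16, limma adjusted p = 0.541). Its receptor chains and its soluble inhibitor had the opposite sign, with Il18r1 at −1.06 (SE 0.46), Il18rap at −0.52 (SE 0.20) and Il18bp at −0.62 (SE 0.25), none of which passed. Of these, Il18rap had a mean below the array median. Il33, an alarmin of the nucleus of epithelial and stromal cells, stood at 6.05, 6.10, 5.89 and 6.76 in WT and at 5.83, 5.57, 7.55 and 7.56 in cKO. The cKO tumors were on both sides of the WT range, 2 above all WT tumors and 2 below them. Its difference of 0.43 (SE 0.47) split into −0.38 on the lower-numbered and 1.23 on the higher-numbered arrays. It was 0.12 without cKO 3 or without cKO 4 and 0.78 without cKO 2.

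Tnf, the cytokine that induces many genes of this group, was highest in WT 2 (5.56) and cKO 3 (5.56), with the other 6 tumors between 4.63 and 5.01, and differed by 0.021 (SE 0.23). Il6 was dim in all tumors, at 1.90, 1.92, 2.07 and 1.92 in WT and 2.12, 1.97, 1.91 and 1.97 in cKO. Its range of 0.22 was the smallest of the 46, and the difference was 0.042 (SE 0.08). The growth factor of granulocytes Csf3 ran from 3.14 to 4.22 in WT and from 3.40 to 4.78 in cKO, with a difference of 0.32 (SE 0.32) that was 0.078 without cKO 4 and 0.54 without cKO 2, and that of granulocytes and macrophages, Csf2, differed by 0.0032 (SE 0.17). Such dim rows may not be above background, and no detection call was used here.

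Ptgs2, or cyclooxygenase-2, the inducible enzyme of prostaglandin synthesis, ran over 3.71 on the log2 scale. It stood at 6.97, 6.73, 5.33 and 6.44 in WT and at 5.14, 7.89, 6.09 and 4.18 in cKO, with both the highest and the lowest tumor in the cKO group. The difference was −0.54 (SE 0.71, limma adjusted p = 0.844), and 0.0036 without cKO 4. Ptges, the enzyme that follows it in the synthesis of its E series, stood at 6.29, 5.81, 6.14 and 6.70 in WT and at 5.99, 4.60, 4.98 and 5.23 in cKO. Its difference was −1.03 (SE 0.29, limma adjusted p = 0.315), and the lowest tumor, cKO 2, was the highest for Ptgs2.

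Lcn2, an iron-scavenging lipocalin of neutrophils and inflamed epithelium, gave a signal near the top of the array's range. It stood at 12.24, 12.21, 11.97 and 12.31 in WT and at 12.17, 12.16, 11.75 and 11.89 in cKO, a difference of −0.19 (SE 0.12, limma adjusted p = 0.66). The acute-phase protein Saa3 ran from 4.39 to 5.74 in WT and from 4.26 to 5.61 in cKO, and differed by −0.042 (SE 0.36). S100a8 and S100a9, which form the complex calprotectin of neutrophils, had ranges of 1.82 and 0.59. S100a8 stood at 5.60, 4.82, 3.92 and 5.26 in WT and at 5.50, 5.74, 4.87 and 4.31 in cKO, with a difference of 0.21 (SE 0.40), and S100a9, below the array median throughout, one of −0.012 (SE 0.15).

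Of 15 neutrophil markers, 11 had a mean below the array median, among them the defining genes Ly6g, Elane and Mpo, and the 4 above it were Ltf, Ceacam10, Cd177 and Mmp9. Their mean level ran from 3.78 to 3.86 in WT and from 3.51 to 3.85 in cKO, and 6 were higher and 9 lower in cKO. Monocyte markers were lower in 5 of 6, with a mean level from 4.85 to 5.20 in WT and from 4.58 to 4.97 in cKO. Of the 6, 3 had a mean below the array median, namely Ly6c2, Chil3 and Fcgr4. Markers of T cells (6 of 8 higher, median 0.15), natural killer and cytotoxic cells (2 of 8 higher, −0.087) and dendritic cells (4 of 7 higher, 0.039) had levels that overlapped between the groups. So did those of B and plasma cells (2 of 7 higher, −0.029), mast cells (5 of 6, 0.12), basal epithelium (2 of 6, −0.17), skin (4 of 8, −0.0034) and adipocytes (3 of 6, 0.035). Means below the array median were found for 4 of 8 T-cell, 5 of 8 cytotoxic, 3 of 7 dendritic-cell and 5 of 7 B and plasma cell markers. They were also found for 4 of 6 mast-cell, 7 of 8 skin and 4 of 6 adipocyte markers. Such dim rows may not be above background. All 10 fibroblast markers (median −0.98) had a lower mean in cKO, 5 at an unadjusted p under 0.05 in limma and 2 without overlap of the groups. Of 9 luminal markers (median −0.15), 8 had a lower mean in cKO, 1 at that p and none without overlap. Of all rows, 4.14% were lower at that p and 5.42% had groups that did not overlap. The mean levels of the fibroblast and luminal lists overlapped between the groups too. The fibroblast level was 7.32, 6.48, 5.48 and 7.86 in cKO 1 to 4 against 7.26 to 7.86 in WT, with cKO 4 the highest of the 8. No marker of any list passed the threshold. With other scalings of the arrays 7 luminal and 4 monocyte markers were lower.

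The range over the 8 tumors differed between the 46 genes, from 0.22 for Il6 to 3.99 for Ccl28. The median range of the 46 genes over the 8 tumors was 0.81, against 0.51 over all tested rows and 0.59 over 10186 brighter rows, whose mean was 5 or more. The range was 2 or more in Ccl28, Ptgs2, Cxcl13, Ccl9, Ccl6 and Ccl8. The tumor cKO 3 had the lowest signal for 15 of the 46, or 32.6%, where it was lowest for 13.6% of all tested rows and for 16.5% of the brighter ones. The 15 were Ccl2, Ccl6, Ccl8, Ccl9, Ccl11, Ccl17, Cxcl3, Cxcl13, Cxcl14, Cx3cl1, Ccr1, Ccr7, Lcn2, Saa3 and S100a9, with no cytokine among them. Each of the other 7 tumors was lowest for 1 to 7 of the 46. The highest signal fell to cKO 2, cKO 4 and WT 2 for 8 genes each and to cKO 3 for 3. Without cKO 3 the median difference of the 46 was 0.018 in place of −0.024, and no gene passed.

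**Figure D4:**
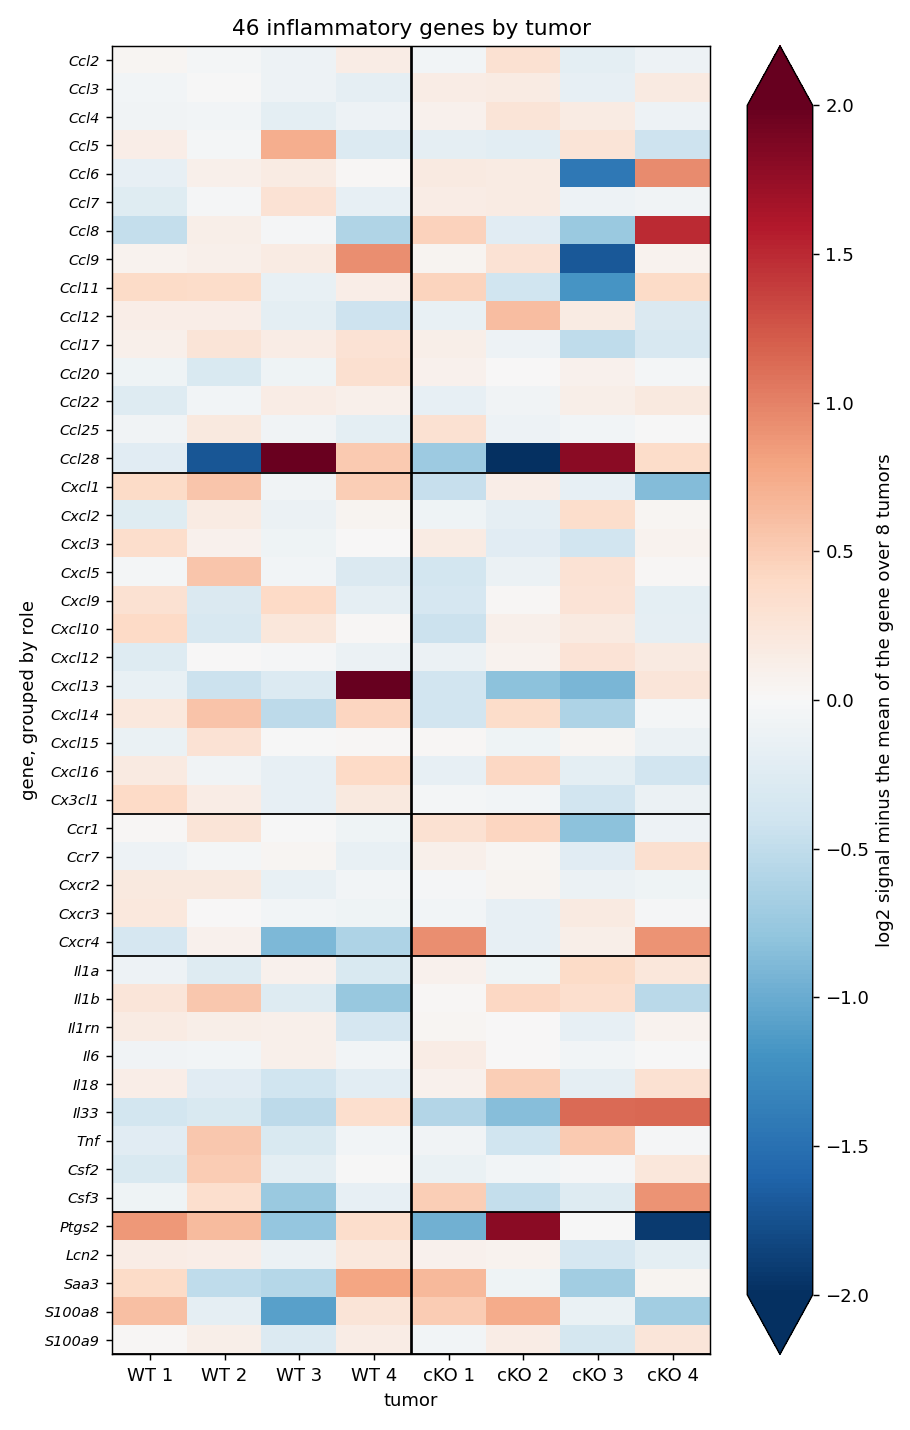
The log2 signal of each of the 46 genes, minus its mean over the 8 tumors, is shown as a colour by tumor, with WT at the left, cKO at the right and genes grouped by role, and colours end at 2 on either side of 0. The column of cKO 3 holds the lowest value for 15 genes, Cxcl13 is high in WT 4, and Ccl28 has the same order of tumors 3, 4, 1 and 2 in both groups.

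The other genes of these pathways were looked at through 7 lists of 126 genes, of which 116 were measured. None passed the threshold, with 3 higher and 14 lower at an unadjusted p under 0.05, where 5.54% of all rows were higher and 4.14% lower. Of the 116, 30 were higher and 86 lower in cKO, and other scalings of the arrays moved the number higher by at most 2 in a list. Among 9 further chemokine ligands 4 were higher, with Pf4, whose mean was below the array median, at 0.27 (SE 0.09). Among 17 further receptors 11 were higher, with Cx3cr1 at 0.56. Of 29 cytokine receptors, inhibitors and further cytokines 20 were lower, with Il18rap at −0.52 and the macrophage growth factor Csf1 at −0.33 (SE 0.14). Of 20 genes of NF-kappa-B signalling and the inflammasome 16 were lower, with a median of −0.099, among them the NF-kappa-B subunit Rel at −0.53 (SE 0.19) and Casp4 at −0.63 (SE 0.25). Its feedback inhibitor Nfkbia, which the pathway induces, stood at −0.27 (SE 0.16). Of 9 prostaglandin genes 8 were lower. The exception was Tbxas1, which makes thromboxane, at 0.28 (SE 0.10) and with a mean below the array median. Of 14 acute-phase and alarmin genes 13 were lower, with S100a6 at −0.91 (SE 0.56) and the lipopolysaccharide receptor genes Cd14 and Tlr4 at −0.57 (SE 0.43) and −0.31 (SE 0.19).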

How the data were processed

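Total RNA (400 ng) of 8 tumors, 4 per group, was labelled with biotin and put on Affymetrix arrays, 1 per tumor, per the labels' protocols. The authors deposited log2 signals, 1 per row and tumor; RMA and limma are named in the submitters' processing notes, without versions or settings. RMA normalizes between arrays, so that a shift shared by all genes is removed, and it compresses changes of dim rows. Precision rests on how many arrays there were.

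Of 41345 rows, 23521 had 1 symbol in the platform annotation, 1814 had several and 16010 are unnamed here. Symbols were updated by gene identifier through the RefSeq table of GRCm38.p6 for 23328 rows, which changed no name of the 46. All 23521 rows entered 1 linear model with the group as its one term (limma 3.58.1, lmFit and eBayes, two-sided, under R 4.3.3), with Benjamini-Hochberg adjustment over all rows and a threshold of 0.05. The fit was run on simulated independent values with added shifts, as a check of the code. How often shifts as small as those of the 46 genes were recovered is not given here. Dixon's ratio was taken within each group of 4 tumors. Arrays were split by the array number in the labels (1 to 4, 5 to 8). Correlations of pairs of arrays over rows lay from 0.976 to 0.989, and no pair had the same value in more than 0.058% of rows.

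Every tumor's value is given for the 10 genes of smallest p, those with a tumor past Dixon's value, the 3 of highest mean and the 1 of largest range, and for others named after their values were seen. Replicates are separate tumors per the labels, without the number of mice, so p-values measure the spread between these tumors. Of each pathway list at most 3 genes with the smallest p are named by that rule, and further receptors, inhibitors and enzymes were picked beside the gene they belong to. The genes and lists were chosen with earlier results of these data known. Alternatives were other scalings of the arrays, a filter on dim rows (mean of at least 5), all rows of the table, another variance prior, the mean of a gene's rows, the replicate number or the array number as a block, and each tumor left out.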

Additional observations from a re-analysis of the deposited data

Results flagged for a closer look

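Within the groups of 4, a tumor's gap to the next was set against the group's whole range, and 6 of 92 such groups, or 6.52%, had a ratio above Dixon's 95% critical value. Chance flags about 1 group in 20, and over all rows 5.3% of WT and 5.5% of cKO groups were above it. In WT 4, Cxcl13 was high at 7.66 (ratio 0.913), Ccl9 was high at 8.61 (ratio 0.891), and Il1rn was low at 3.87 (ratio 0.894). In cKO 3, Ccl9 was low at 5.99 (ratio 0.883) and Ccl3 was low at 4.27 (ratio 0.881). In WT 3, Il6 was high at 2.07 (ratio 0.842), by a gap of 0.14 on a dim row.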

How the results depend on the processing

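No gene of the 46 passed under any of the 16 alternative fits, and the lowest adjusted p any of them reached was 0.235, for Cxcr4 without WT 2. The number of all rows called was 8 with all rows of the table tested, 1 with arrays 1 to 4 and 5 to 8 as a block, and 0 with the replicate block (1898, or 8.07%, at an unadjusted p under 0.05 in limma), and with 1 tumor left out it ran from 0 to 3. Mmp14 differed by −1.40 with the replicate block and with the array block, where it no longer passed. The lower-numbered arrays gave −1.13 and the higher-numbered −1.66. With 1 tumor left out the range was −1.48 to −1.30, and it passed only without cKO 1 or cKO 3. Over rows with a mean of at least 5, same-numbered tumors had correlations of their deviations of −0.0212, −0.2, 0.294 and −0.245. The numbers were therefore not taken to pair the tumors. With the replicate block, 10 of the 46 (21.7%) had an unadjusted p under 0.05 in place of 6, beside 8.07% of all rows in place of 9.68%. The median difference of the 46 ran from −0.059 to 0.018 with 1 tumor left out, was −0.18 over the 18 genes with a mean of at least 5, and was −0.079 on the lower-numbered and −0.025 on the higher-numbered arrays.

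Leaving out some 1 tumor moved the difference of 37 of the 46 genes by over 1.5 times, the exceptions being Ccl3, Ccl4, Ccl17, Cxcl1, Cxcl12, Cx3cl1, Cxcr4, Il1a and Il18. With 1 tumor left out, 25 of the 46 kept their sign in all 8 fits, among them Cxcl1, Ccl17, Cxcr4, Il1a, Cx3cl1 and Ccl4. The differences of the other 21 crossed 0: Ccl2 from −0.13 to 0.038, Ccl6 from −0.40 to 0.39, Ccl12 from −0.0029 to 0.30, Ccl20 from −0.013 to 0.20, Ccl22 from −0.047 to 0.098, Ccl25 from −0.018 to 0.15, Ccl28 from −0.93 to 0.34, Cxcl2 from −0.041 to 0.14, Cxcl5 from −0.19 to 0.089, Cxcl15 from −0.14 to 0.0052, Ccr1 from −0.25 to 0.16, Cxcr3 from −0.1 to 0.028, Il1b from −0.11 to 0.32, Il1rn from −0.14 to 0.026, Il6 from −0.00053 to 0.080, Tnf from −0.15 to 0.20, Csf2 from −0.10 to 0.17, Ptgs2 from −1.23 to 0.0036, Saa3 from −0.27 to 0.21, S100a8 from −0.12 to 0.47, S100a9 from −0.10 to 0.10. Of these, Ccl6 and Ccr1 crossed 0 only without cKO 3 and Ptgs2 only without cKO 4. Another scaling turned the sign of 3 genes near 0, Il1rn to 0.0036 and Csf2 to −8.6e-05 after quantile normalization and S100a9 to 0.0019 after a shift to 1 median. The cause was not tested. Dim rows and 4 tumors a group limit what could be detected.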

Other observations

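Some genes outside the 46, named after their values were seen, also varied widely between tumors. Ptx3, a soluble pattern-recognition protein, was at 7.94 in cKO 3 and between 5.19 and 6.18 in the other tumors, so that this tumor, lowest for 15 of the 46 genes, was the highest for it. Ceacam10 was at 4.22 in cKO 2 and between 6.95 and 9.04 elsewhere. The acute-phase gene Saa2 was at 9.37 in WT 1 and 9.31 in cKO 1 and between 7.37 and 8.28 in the other 6 tumors. Cd4, which T cells and some macrophages carry, was at 5.28, 4.25, 5.61 and 6.13 in cKO 1 to 4 and between 4.49 and 4.83 in WT, while Cd3d was below the array median in all 8 tumors.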
